A study of Mus musculus with 8 samples.

Results

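The 9 genes described here are *Dnmt1*, *Dnmt3a*, *Dnmt3b*, *Dnmt3l*, *Uhrf1*, *Tet1*, *Tet2*, *Tet3* and *Tdg*, which write, copy or remove DNA methylation in mouse embryonic stem cells (mESCs). They were taken by name for their roles, with earlier results of these data known. All 9 of 9 were found among the 55385 genes of the count table, and all 9 were among the 17445 genes that passed the filter on low counts.

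The cells were R1 mESCs, an established line of wild-type genotype, kept without feeder cells in N2B27 medium with 2i and LIF, which holds mESCs in the naive state. The study lists poly-L-ornithine with laminin, or fibronectin, as plate coatings. Every culture was infected with a lentivirus carrying a short hairpin RNA for 2 days and selected with puromycin for 3 days, the controls included. The shRNA1 group (3 libraries) and the shRNA2 group (3 libraries) carried independent hairpins against *Eftud2*, a GTPase of the U5 small nuclear ribonucleoprotein in the spliceosome. The nt-shRNA group (2 libraries) carried a non-targeting hairpin. According to the study, shRNA1 is directed at the untranslated end of the transcript and shRNA2 at the coding sequence. The labels call the libraries of a group biological replicates, and all come from 1 cell line and 1 control hairpin. The comparisons ask how the RNA levels of these genes changed when the splicing machinery was perturbed with either hairpin. DNA methylation itself was not measured.

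Methylation of cytosine in CpG dinucleotides is laid down on unmethylated DNA by DNMT3A and DNMT3B. DNMT3L has no catalytic activity of its own and stimulates both enzymes. After replication the mark is copied to the new strand by DNMT1, which UHRF1 brings to hemimethylated CpGs. The TET enzymes oxidise methylcytosine, and TDG excises the most oxidised forms so that base excision repair can restore an unmodified cytosine. Naive mESCs in 2i are known for low genomic methylation, with the de novo enzymes and UHRF1 protein held low and the TET enzymes active.

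Depth ran from 19569525 to 29871048 counts per library. Levels are given as CPM, counts scaled to the library total with TMM factors, unless RPKM (the same per kilobase of exon) is named. *Eftud2* stood at 262 and 256 CPM in the nt-shRNA libraries, at 232, 229 and 225 CPM with shRNA1 and at 198, 202 and 235 CPM with shRNA2. It was therefore lower in every knockdown library than in both controls. The difference passed the test with shRNA2 (log2 fold change -0.29, adjusted p = 0.00122, edgeR). It did not pass with shRNA1 (-0.18, adjusted p = 0.0514), where it passed in 6 of 15 other settings of the analysis. Between the hairpins *Eftud2* was not called (-0.11, adjusted p = 0.164, edgeR). That difference passed in 1 of 15 other settings, without the third shRNA2 library (-0.19, adjusted p = 0.0127). The study also assayed the knockdown by qPCR and western blot, which are not used here, so the extent of the knockdown is given here by sequencing alone. Its qPCR gave a larger fall with each hairpin than these counts. The markers of pluripotent stem cells summed to between 4668 and 4738 CPM in nt-shRNA, between 5133 and 5284 CPM with shRNA1 and between 6087 and 6278 CPM with shRNA2, and all 10 were detected. Without *Nanog* the other 9 summed to between 3736 and 3845 CPM in nt-shRNA and 3843 and 3968 CPM with shRNA1, ranges that overlap. With shRNA2 these 9 summed to between 4494 and 4791 CPM. Of these 10 markers, 5 were higher and 2 lower with shRNA1, and 7 were higher and 2 lower with shRNA2, where 13.8% and 17.1% of all tested genes were called higher and lower with shRNA1 and 27.2% and 28.7% with shRNA2 (edgeR, adjusted p under 0.05). *Klf4*, *Tbx3* and *Nanog*, all transcription factors of the naive state, had log2 fold changes of 1.32, 0.91 and 0.76 with shRNA2, while *Utf1* fell by 0.86 on the log2 scale. The other lower marker, named after its values were seen, was *Pou5f1* (-0.35 with shRNA1 and -0.29 with shRNA2). Fibroblast markers summed to between 4.60 and 4.99 CPM in nt-shRNA and to between 6.32 and 7.57 CPM across the knockdown libraries, with *Col3a1* and *Twist2* at 0 in both controls. Trophoblast markers summed to between 119.6 and 119.7, between 102 and 113 and between 88.7 and 93.3 CPM in nt-shRNA, shRNA1 and shRNA2, respectively. Most of this fall was *Krt7*, a keratin, at means of 29.3, 18.8 and 4.88 CPM, and the other 6 summed to between 88.6 and 92.1 CPM in nt-shRNA and between 84.9 and 88.4 CPM with shRNA2. Primitive endoderm markers summed to between 44.5 and 46.0 CPM in nt-shRNA, 42.6 and 48.8 CPM with shRNA1 and 35.8 and 41.6 CPM with shRNA2, the last group lying below the others. Mesoderm and neural markers summed to between 18.8 and 21.0 CPM in nt-shRNA, 23.2 and 25.5 CPM with shRNA1 and 35.1 and 48.4 CPM with shRNA2, and the rise was that of *Tubb3*, at means of 10.2, 15.6 and 30.5 CPM. The other 6 summed to between 9.44 and 9.86 CPM in nt-shRNA, 7.31 and 9.03 CPM with shRNA1 and 8.52 and 9.73 CPM with shRNA2. Formative and primed markers summed to between 103 and 127 CPM in nt-shRNA, 116 and 118 CPM with shRNA1 and 138 and 157 CPM with shRNA2, the last group lying above the others through *Nodal* alone. Without *Nodal* the sum went the other way, from between 60.8 and 76.5 CPM in nt-shRNA to between 45.4 and 55.6 CPM with shRNA2, and the median log2 fold change of the list was -0.19. With shRNA2, 1 of 6 tested formative markers was higher (*Nodal*, log2 fold change 1.03) and 1 lower (*Otx2*, -0.64), 1 of 5 endoderm markers was lower (*Gata6*, -0.75), 2 of 6 trophoblast markers were lower (*Krt7*, -2.59, and *Hand1*, -1.62), 2 of 5 mesoderm and neural markers were higher (*Tubb3*, 1.58, and *Mixl1*, 0.81) and 1 of 3 fibroblast markers was higher (*Col1a2*, 1.66, at a mean of 1.38 CPM). With shRNA1, *Nodal* (0.28), *Tubb3* (0.62) and *Col1a2* (1.27) were higher and *Krt7* (-0.63) and the mesoderm factor *T* (-0.81) lower, and no endoderm marker was called. The part of these shifts in the results below was not tested, and in bulk RNA fewer cells of a type and less RNA per cell cannot be told apart.

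Per kilobase of exon, the maintenance genes and *Dnmt3l* were the most abundant of the 9 in control cells. In nt-shRNA the mean RPKM was 124 for *Uhrf1*, 74.6 for *Dnmt3l*, 66.2 for *Dnmt1*, 28.1 for *Tet1*, 7.55 for *Dnmt3b*, 6.73 for *Tdg*, 6.55 for *Tet2*, 2.65 for *Dnmt3a* and 1.17 for *Tet3*. Only *Tdg* and *Tet2* had overlapping ranges among neighbours in this order. With shRNA1 *Dnmt1* stood above *Dnmt3l* (63.2 against 51.1 RPKM) and *Tet2* above *Tdg* (9.42 against 6.01 RPKM), and no neighbouring ranges overlapped. With shRNA2 *Tet2* (19.4 RPKM) and *Dnmt3b* (18.0 RPKM) had overlapping ranges and both lay well above *Tdg* (6.49 RPKM). *Uhrf1* kept the first place and *Dnmt3a* and *Tet3* the last places in all groups. These levels are divided by the summed exon length over all annotated isoforms, 16870 bases for *Tet2* and 2988 bases for *Dnmt3l*, so a gene used mainly through a short isoform reads low.

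**Figure D1:**
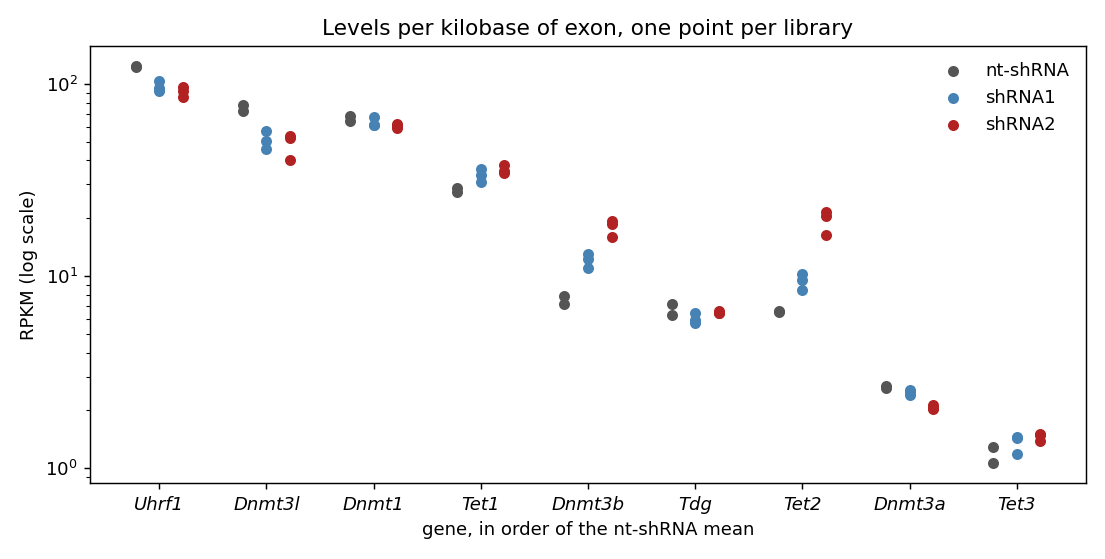
RPKM of the 9 genes in each of the 8 libraries on a log axis, with genes ordered by their nt-shRNA mean (grey, nt-shRNA; blue, shRNA1; red, shRNA2; 1 point per library). *Tet2* and *Dnmt3b* climbed from 6.55 and 7.55 RPKM in nt-shRNA to 19.4 and 18.0 RPKM with shRNA2, whereas the points of *Tdg* stayed between 5.69 and 7.18 RPKM in all libraries.

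The genes lie on 7 chromosomes of GRCm38 by the deposited exon coordinates. *Dnmt3a* is at chr12:3806007-3914443 (plus strand), *Dnmt3b* at chr2:153649450-153687730 (plus), *Dnmt3l* at chr10:78041947-78063622 (plus), *Dnmt1* at chr9:20907209-20959888 (minus) and *Uhrf1* at chr17:56303321-56323486 (plus). *Tet1* is at chr10:62804570-62908996 (minus), *Tet2* at chr3:133463679-133545139 (minus), *Tet3* at chr6:83362373-83459084 (minus) and *Tdg* at chr10:82629828-82650799 (plus). The counting took no account of strand. Exon bases shared with a gene on the opposite strand made up 6.83% of *Tdg* (with *Glt8d2*), 2.24% of *Dnmt3l* (with *Aire*), 0.80% of *Dnmt3a* (with *Dnmt3aos*) and 0.25% of *Tet2* (with *Gm42567*), and fragments assigned to both genes in these stretches were left out of the counts.

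Since the products of these genes act on CpG dinucleotides, the CpGs in front of their own RefSeq start sites are shown. The window is the 250 bases before the most upstream start listed in the table used (RefSeq, GRCm38.p6), which 9 of 9 genes had. The deposited exons of several genes reach further upstream, so that this start lies inside the gene, by 973 bases in *Dnmt3a*, 749 in *Tet2*, 340 in *Dnmt3l*, 21672 in *Tet1* and 17406 in *Tet3*, and the windows of these genes are not those of the outermost start. In the other 4 genes the start used lay within 16 bases of the outermost deposited exon end. The table listed 3 starts each for *Dnmt3a*, *Dnmt3l* and *Dnmt1* and 2 for *Uhrf1*, of which only the most upstream was read. Which start these cells used was not determined. A window, that of *Dnmt1* included, may therefore not be the promoter of the RNA counted here. Shown are *Tet2* and *Dnmt3b*, the genes that rose most, *Dnmt3a*, which fell with shRNA2 while *Dnmt3b* rose, and *Dnmt1*, which was not called. Their windows are chr3:133544391-133544640 (minus strand), chr2:153649199-153649448 (plus), chr12:3806730-3806979 (plus) and chr9:20959889-20960138 (minus), and none holds a base of the gene's own annotated exons. Sequences run 5′ to 3′ with each CpG in capitals.
Tet2: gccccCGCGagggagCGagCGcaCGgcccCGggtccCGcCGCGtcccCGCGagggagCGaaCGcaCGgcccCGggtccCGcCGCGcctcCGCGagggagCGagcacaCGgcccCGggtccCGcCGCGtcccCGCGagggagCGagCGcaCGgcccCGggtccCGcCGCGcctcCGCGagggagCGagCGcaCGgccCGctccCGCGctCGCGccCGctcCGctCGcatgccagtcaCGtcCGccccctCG
Dnmt3b: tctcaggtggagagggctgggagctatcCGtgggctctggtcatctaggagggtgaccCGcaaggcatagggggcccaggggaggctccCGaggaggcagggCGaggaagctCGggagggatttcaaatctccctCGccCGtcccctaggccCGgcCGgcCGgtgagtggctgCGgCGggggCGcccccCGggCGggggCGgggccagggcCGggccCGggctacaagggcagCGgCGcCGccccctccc
Dnmt3a: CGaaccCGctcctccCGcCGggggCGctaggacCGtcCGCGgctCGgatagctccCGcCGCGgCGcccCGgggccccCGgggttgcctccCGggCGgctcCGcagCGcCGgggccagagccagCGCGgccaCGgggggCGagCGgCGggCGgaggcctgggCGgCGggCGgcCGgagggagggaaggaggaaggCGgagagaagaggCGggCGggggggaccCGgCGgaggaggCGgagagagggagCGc
Dnmt1: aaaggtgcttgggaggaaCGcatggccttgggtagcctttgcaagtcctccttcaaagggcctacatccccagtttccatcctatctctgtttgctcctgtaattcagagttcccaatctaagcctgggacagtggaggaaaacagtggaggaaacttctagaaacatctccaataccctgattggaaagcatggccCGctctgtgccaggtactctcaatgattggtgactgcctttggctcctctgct

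The *Tet2* window held 51 CpGs, more than 99.9% of the 32851 RefSeq windows of this length, whose median was 6 CpGs. *Dnmt3a* held 38, *Dnmt3b* 21, *Tdg* 19, *Tet3* 17, *Tet1* 15, *Uhrf1* 10, *Dnmt3l* 5 and *Dnmt1* 2. The *Tet2* window is also repetitive, with 56 different words of 12 bases in more than 1 copy and up to 5 copies of a word, against 2 such words in *Dnmt1* and none in the other 7 windows. The Sp1 box GGGCGG, searched on both strands, is in 32.7% of all windows and, counting matches that overlap, was found 5 times in *Dnmt3a*, 3 times in *Dnmt3b* and once each in *Uhrf1*, *Tet1*, *Tet2* and *Tet3*. The CCAAT box (33.8% of windows) matched 4 times in *Dnmt1* and once each in *Uhrf1*, *Tet3* and *Tdg*, and the E-box CACGTG (6.0% of windows) was found in *Tdg* alone. The 4 genes that rose with shRNA2 held from 15 to 51 CpGs and the 3 that fell from 5 to 38. The methylation of these windows was not measured.

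With shRNA1, *Dnmt3b*, *Tet2* and *Tet1* rose, and *Dnmt3l* and *Uhrf1* fell. Of the 9 genes, 3 were called higher, 2 lower and 4 not called (edgeR quasi-likelihood test, Benjamini-Hochberg adjusted p under 0.05 over all tested genes), where 30.9% of all tested genes were called, 13.8% higher and 17.1% lower. With shRNA2, *Tet2*, *Dnmt3b*, *Tet1* and *Tet3* rose, and *Dnmt3l*, *Uhrf1* and *Dnmt3a* fell. This made 4 genes higher, 3 lower and 2 not called, where 55.9% of all tested genes were called, 27.2% higher and 28.7% lower. In the direct comparison of shRNA2 with shRNA1, 2 genes were higher (*Tet2*, *Dnmt3b*), 1 was lower (*Dnmt3a*) and 6 were not called, where 35.6% of all tested genes were called, 16.9% higher and 18.7% lower. The median log2 fold change over the 9 genes was -0.07 with shRNA1, -0.05 with shRNA2 and 0.10 between the hairpins, beside -0.01, 0.00 and 0.00 over all tested genes. The comparisons of shRNA1 and shRNA2 share the same 2 nt-shRNA libraries, so they are not independent of each other. When libraries were scaled by their totals in place of TMM, the median of all genes moved to 0.11 with shRNA1 and 0.09 with shRNA2, the share of calls that were higher from 44.7% to 70.5% and, with shRNA2, from 48.7% to 58.9%. No called direction among the 9 genes changed.

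**Figure D2:**
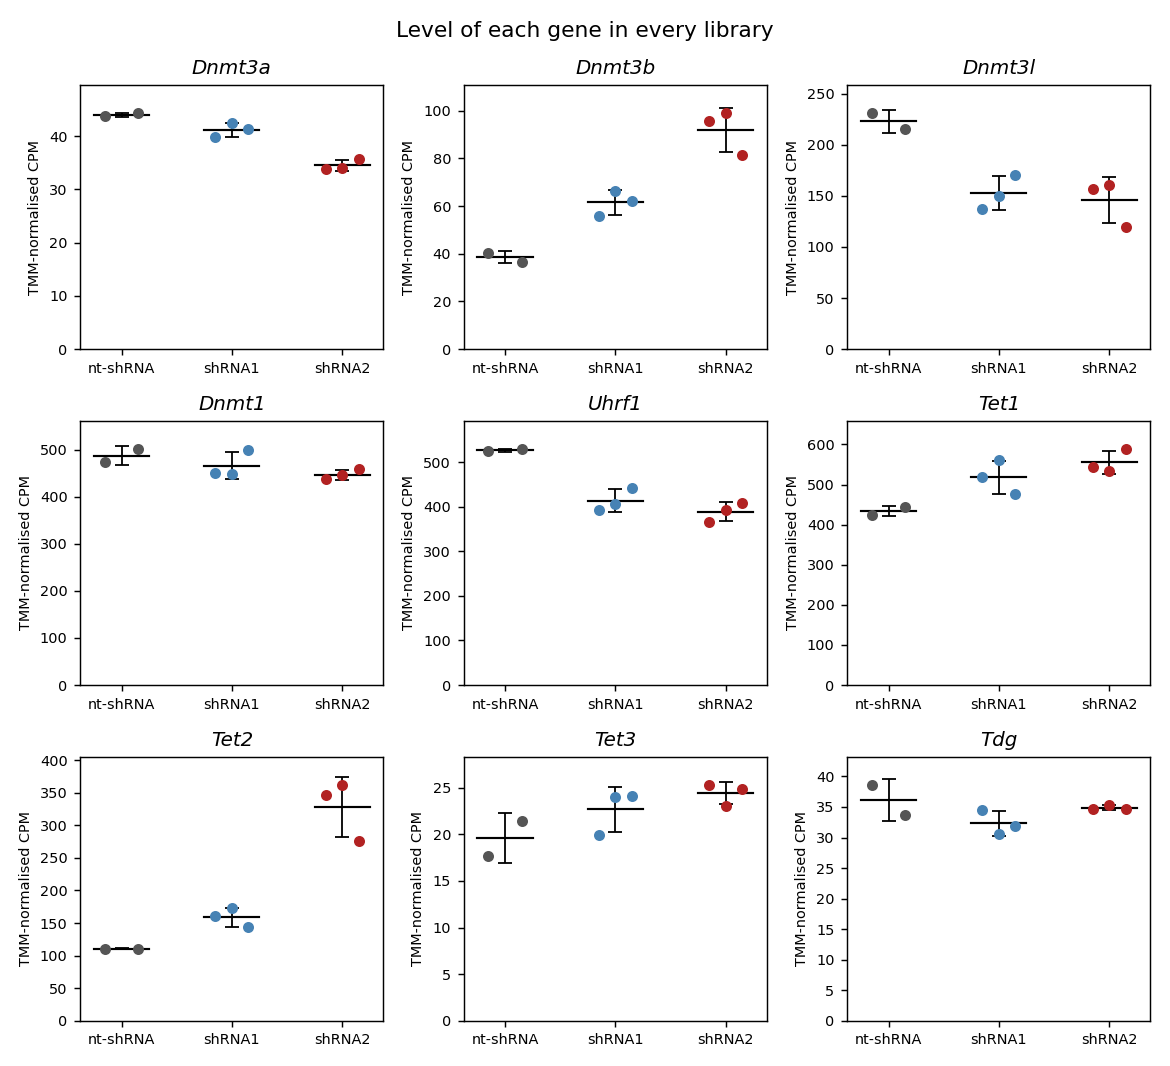
TMM-scaled CPM of each gene in every library, with points for libraries, a horizontal line for the group mean and error bars for the SD (n = 2 for nt-shRNA, n = 3 for shRNA1 and shRNA2). All shRNA2 points of *Tet2* (276 to 362 CPM) and *Dnmt3b* (81.4 to 98.9 CPM) lie above all other points, and all knockdown points of *Dnmt3l* and *Uhrf1* lie below both control points.

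The enzymes that set new methylation moved in opposite directions. *Dnmt3b* (ENSMUSG00000027478.15), which acts mainly in the early embryo, stood at 40.4 and 36.7 CPM in the nt-shRNA libraries, at 56.0, 66.3 and 62.3 CPM with shRNA1 and at 95.5, 98.9 and 81.4 CPM with shRNA2. The 3 groups did not overlap. It rose 1.6-fold with shRNA1 (log2 fold change 0.67, SE 0.09, adjusted p = 1.8e-05, edgeR) and 2.38-fold with shRNA2 (1.25, SE 0.09, adjusted p = 1.8e-09), and the difference between the hairpins passed the test as well (0.58, adjusted p = 2.1e-05). *Dnmt3a* (ENSMUSG00000020661.15), the partner enzyme that is used more widely in later development and in adult tissues, stood at 43.7 and 44.3 CPM in nt-shRNA, at 39.9, 42.5 and 41.3 CPM with shRNA1 and at 33.9, 34.0 and 35.7 CPM with shRNA2. These groups did not overlap either, in a falling order. The shRNA1 difference did not pass the test (-0.10, 95% interval -0.24 to 0.05, adjusted p = 0.327), *Dnmt3a* fell by 0.35 with shRNA2 (SE 0.07, adjusted p = 3.6e-04, a 21.6% fall), and it was lower with shRNA2 than with shRNA1 (-0.26, adjusted p = 0.00504).

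*Dnmt3l* (ENSMUSG00000000730.13), the cofactor of both enzymes, fell with either hairpin. It stood at 231 and 215 CPM in nt-shRNA, at 137, 150.3 and 171 CPM with shRNA1 and at 157, 161 and 119.8 CPM with shRNA2. Each knockdown library lay below both controls, while the hairpin groups overlapped. The fall was 31.4% with shRNA1 (log2 fold change -0.54, SE 0.10, adjusted p = 3.6e-04, edgeR) and 34.7% with shRNA2 (-0.61, SE 0.10, adjusted p = 3.3e-05). Between the hairpins the difference was -0.07, with a 95% interval from -0.26 to 0.12.

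These movements changed the balance within the de novo group. The ratio of *Dnmt3b* to *Dnmt3a* RPKM was 2.86 ± 0.22 (SD, n = 2) in nt-shRNA, 4.86 ± 0.26 (n = 3) with shRNA1 and 8.70 ± 1.10 (n = 3) with shRNA2. The ratio of *Dnmt3l* to the sum of *Dnmt3a* and *Dnmt3b* was 7.32 ± 0.02, 3.52 ± 0.34 and 2.42 ± 0.17 in the same order. In both ratios no library of 1 group overlapped another group. The summed RPKM of the enzymes was 10.2 ± 0.49 in nt-shRNA, 14.5 ± 1.10 with shRNA1 and 20.1 ± 1.76 with shRNA2. These ratios and sums are descriptions. No test of them was run, and an exact two-sided permutation test of 3 libraries against 2 could not give a p under 0.1.

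**Figure D3:**
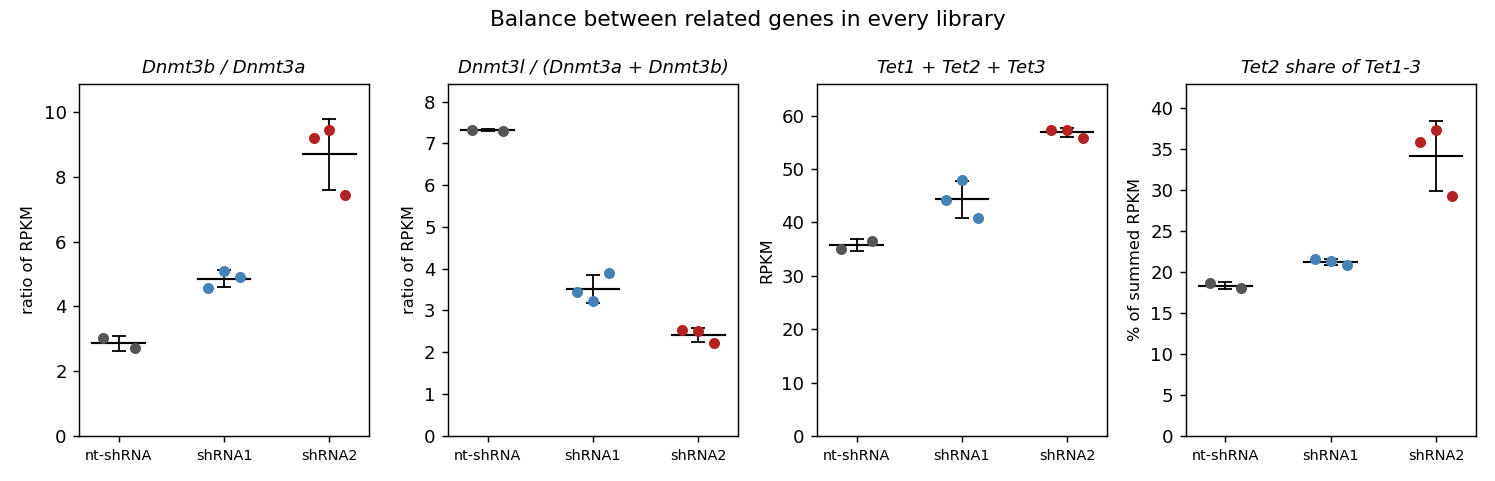
Ratios and sums of RPKM in every library, with points for libraries, a horizontal line for the group mean and error bars for the SD (n = 2, 3 and 3). The *Dnmt3b* to *Dnmt3a* ratio climbed from 2.86 to 8.70, the ratio of *Dnmt3l* to both enzymes dropped from 7.32 to 2.42, and the *Tet2* share of summed Tet RPKM went from 18.3% to 34.2%.

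Of the maintenance pair, *Uhrf1* fell and *Dnmt1* was not called. *Uhrf1* (ENSMUSG00000001228.14), which reads hemimethylated CpGs, stood at 525 and 529.5 CPM in nt-shRNA, at 393, 406 and 443 CPM with shRNA1 and at 366, 392 and 409 CPM with shRNA2. Every knockdown library lay below both controls. It was 21.5% lower with shRNA1 (log2 fold change -0.35, SE 0.07, adjusted p = 4.9e-04, edgeR) and 26.2% lower with shRNA2 (-0.44, SE 0.07, adjusted p = 1.4e-05), and the hairpins differed by -0.09 (95% interval -0.21 to 0.03). *Dnmt1* (ENSMUSG00000004099.16), the copying enzyme, stood at 474 and 502 CPM in nt-shRNA, at 451, 449 and 499 CPM with shRNA1 and at 437, 447 and 458 CPM with shRNA2. The shRNA1 libraries overlapped the controls and the shRNA2 libraries lay just below them. Its log2 fold change was -0.07 with shRNA1 (95% interval -0.20 to 0.07, adjusted p = 0.453) and -0.12 with shRNA2 (95% interval -0.26 to 0.01, adjusted p = 0.0987). The *Dnmt1* to *Uhrf1* ratio of RPKM was accordingly 0.53 ± 0.02 in nt-shRNA, 0.65 ± 0.01 with shRNA1 and 0.67 ± 0.02 with shRNA2. The *Dnmt1* difference with shRNA2 passed in 2 of 15 other settings, without the third shRNA1 library (-0.12, adjusted p = 0.0458, edgeR) and in the fit blocked on replicate number (-0.16, adjusted p = 0.0369), so this result lies at the edge of the threshold.

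Since both maintenance genes follow the cell cycle, 20 other genes of DNA replication and S phase were read beside them. Their summed level was 4265 to 4379 CPM in nt-shRNA, 3960 to 4136 CPM with shRNA1 and 4175 to 4471 CPM with shRNA2. With shRNA1, 2 were higher and 4 lower (median log2 fold change -0.08), and with shRNA2 5 were higher and 4 lower (median 0.01), where 13.8% and 17.1% of all tested genes were called higher and lower with shRNA1 and 27.2% and 28.7% with shRNA2. The replication genes *Gins2* (-0.49 and -0.64) and *Mcm6* (-0.28 and -0.46) and the factor *E2f1* (-0.27 and -0.38) fell with shRNA1 and with shRNA2, respectively. In the other direction, and named after their values were seen, *Ccne2*, a cyclin of S-phase entry, rose with both (0.38 and 0.55), the histone mRNA-binding protein gene *Slbp* rose with shRNA1 (0.20), and the replication genes *Mcm5* (0.36), *Gins1* (0.33), *Mcm4* (0.17) and *Tipin* (0.18) rose with shRNA2. The 2 higher genes with shRNA1 became 0 without the first shRNA1 or the first nt-shRNA library, 1 without the second of either group and 5 under scaling by library size alone, and the 5 with shRNA2 became 3 without the first nt-shRNA library and 8 under library size alone. The part of such genes in the fall of *Uhrf1* was not tested.

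All 3 oxidases were higher with shRNA2, *Tet2* by far the most. *Tet2* (ENSMUSG00000040943.12), which lacks the CXXC DNA-binding domain of its relatives, stood at 110.0 and 111 CPM in nt-shRNA, at 161, 173 and 144 CPM with shRNA1 and at 346, 362 and 276 CPM with shRNA2. The groups were far apart, the lowest shRNA2 library lying well above the highest shRNA1 library. It rose 1.44-fold with shRNA1 (log2 fold change 0.52, SE 0.09, adjusted p = 3.4e-04, edgeR) and 2.97-fold with shRNA2 (1.57, SE 0.10, adjusted p = 2.9e-10), and was 2.07-fold higher with shRNA2 than with shRNA1 (1.05, SE 0.08, adjusted p = 2.2e-07). Its fold change with shRNA2 was above that of 96.6% of tested genes, and between the hairpins above that of 98.3%.

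*Tet1* (ENSMUSG00000047146.17), the main oxidase of mESCs, stood at 424 and 443 CPM in nt-shRNA, at 518, 560.1 and 477 CPM with shRNA1 and at 544, 534 and 588 CPM with shRNA2. Knockdown and control libraries did not overlap. It rose 1.19-fold with shRNA1 (log2 fold change 0.26, SE 0.07, adjusted p = 0.00898, edgeR) and 1.28-fold with shRNA2 (0.36, SE 0.07, adjusted p = 2.6e-04). The shRNA1 call did not hold without the second shRNA1 library (0.20, adjusted p = 0.0591) or without the first nt-shRNA library (0.23, adjusted p = 0.102). *Tet3* (ENSMUSG00000034832.15), the oxidase of the oocyte and zygote, was the least abundant of the 9 with 441 to 677 raw counts per library. It stood at 17.7 and 21.5 CPM in nt-shRNA, at 19.9, 23.99 and 24.1 CPM with shRNA1 and at 25.3, 23.0 and 24.9 CPM with shRNA2. The shRNA1 libraries overlapped the controls and were not called (0.21, 95% interval -0.01 to 0.43, adjusted p = 0.14), and *Tet3* rose 1.25-fold with shRNA2 (0.32, SE 0.11, adjusted p = 0.0163). That call did not hold without the first shRNA2 library (0.29, adjusted p = 0.0529) or without the first nt-shRNA library (0.18, adjusted p = 0.264).

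The summed RPKM of the Tet genes was 35.8 ± 1.07 (SD, n = 2) in nt-shRNA, 44.3 ± 3.55 (n = 3) with shRNA1 and 56.9 ± 0.83 (n = 3) with shRNA2, without overlap between groups. *Tet1* made up 78.4%, 75.7% and 63.3% of the sum in this order, *Tet2* 18.3%, 21.3% and 34.2%, and *Tet3* 3.27%, 3.08% and 2.57%. The larger *Tet2* share with shRNA2 ranged from 29.3% to 37.4% over its libraries, the lowest being the third replicate, which also had the lowest *Dnmt3b* and *Dnmt3l* of the group. The same library had the highest *Eftud2* of the group, 235 CPM against 198 and 202 CPM, above every shRNA1 library. The part of this in its other levels was not tested.

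*Tdg* (ENSMUSG00000034674.18), the glycosylase, was not called in any comparison. It stood at 38.6 and 33.7 CPM in nt-shRNA, at 34.5, 30.6 and 31.9 CPM with shRNA1 and at 34.6, 35.4 and 34.7 CPM with shRNA2. The shRNA1 libraries overlapped the controls, with 2 of them below both, and all shRNA2 libraries lay inside the span of the controls. Its log2 fold changes were -0.16 with shRNA1 (95% interval -0.33 to 0.01, adjusted p = 0.145, edgeR) and -0.05 with shRNA2 (95% interval -0.22 to 0.12, adjusted p = 0.623).

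**Figure D4:**
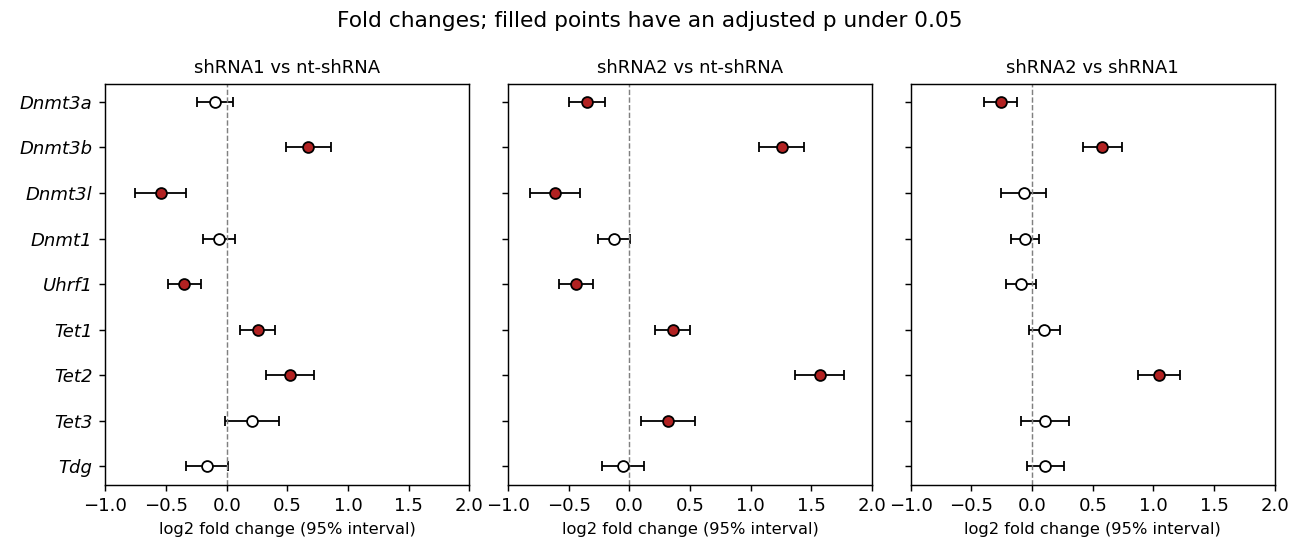
Log2 fold changes of the 9 genes with 95% intervals in the 3 comparisons; filled points have an adjusted p under 0.05 (edgeR quasi-likelihood test). *Tet2* and *Dnmt3b* lie furthest to the right with shRNA2 (1.57 and 1.25) and *Dnmt3l* furthest to the left (-0.61), and in the direct comparison the filled points are *Tet2*, *Dnmt3b* and *Dnmt3a*.

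Counting libraries without a test, 3 of the 9 genes were higher and 3 lower in every shRNA1 library than in both controls, where 26.6% and 30.2% of tested genes were, 56.8% in all. With shRNA2, 4 were higher and 4 lower in every library, where 35.4% and 36.0% of tested genes were, 71.4% in all. Between the hairpins, 3 were higher (*Tet2*, *Dnmt3b* and *Tdg*) and 1 lower (*Dnmt3a*) in every shRNA2 library, where 23.6% and 24.1% of tested genes were, 47.8% in all.

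The genes around the 9 were read in lists by role, with the percentages of all tested genes given above as background. Among 9 tested related enzymes and cytidine deaminases (of 10), 1 was higher and 4 lower with shRNA1 (median log2 fold change -0.15), and 3 were higher and 3 lower with shRNA2 (median 0.15). The deaminases *Apobec1* (-0.67 with shRNA1 and -0.77 with shRNA2), *Apobec2* (-0.46 and -0.72) and *Apobec3* (-0.34 and -0.45) fell with both hairpins. The single higher gene with shRNA1 became 0 without the first shRNA1 or the first nt-shRNA library, 2 without the first or the second shRNA2 library and 3 without the third shRNA1 library, and the 4 lower genes became 2 without the second nt-shRNA library. Scaling by library size alone turned the balance with shRNA1 to 4 higher and 2 lower. Of 10 genes listed as methyl-CpG readers or members of their families, 2 were higher and 1 lower with shRNA1 (median 0.07). With shRNA2, 4 were higher and 6 not called (median 0.14). *Mbd5* rose with both hairpins (0.57 and 0.87), as did *Mbd1* (0.23 and 0.36), and *Zbtb33*, which encodes the reader Kaiso, rose with shRNA2 (0.30). Without the first nt-shRNA library, both higher calls with shRNA1 were lost and the higher genes of this list with shRNA2 numbered 2. With shRNA1, 1 gene of the list was higher without the second or the third shRNA1 library. Lower genes with shRNA1 numbered 2 without the third shRNA1, the second shRNA2 or the third shRNA2 library. With shRNA2, 1 was lower without the second shRNA2 library.

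Of 23 genes that recruit the methyltransferases, modify chromatin with them or protect against them, 7 were higher and 2 lower with shRNA1 (median 0.06), and 12 were higher and 4 lower with shRNA2 (median 0.18). *Dppa2*, which keeps developmental promoters free of methylation, stood at 21.5 ± 0.81 CPM (SD, n = 2) in nt-shRNA, 36.4 ± 5.0 CPM (n = 3) with shRNA1 and 58.2 ± 6.11 CPM (n = 3) with shRNA2 (log2 fold change 1.43, adjusted p = 3.1e-09, edgeR). *Trim28*, the corepressor of KRAB zinc-finger proteins, rose by 0.20 and 0.53 on the log2 scale with shRNA1 and shRNA2. *Ehmt2*, the histone methyltransferase G9a, fell by 0.39 and 0.59. The shRNA1 count of higher genes was 4 without the first nt-shRNA library, and that of lower genes was 1 without the second shRNA1 or either nt-shRNA library and under library size alone.

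Of 10 tested partners and cofactor suppliers of the TET enzymes (of 11), 2 were higher and 4 lower with shRNA1 (median -0.18), and 2 were higher and 7 lower with shRNA2 (median -0.30). *Idh2*, which makes the TET co-substrate alpha-ketoglutarate in mitochondria, stood at 309 ± 7.03 CPM (SD, n = 2) in nt-shRNA, 188 ± 11.8 CPM (n = 3) with shRNA1 and 120.1 ± 15.8 CPM (n = 3) with shRNA2 (log2 fold change -1.36, adjusted p = 2.2e-10, edgeR). *Sinhcaf*, a subunit of the SIN3 complex, fell by 0.52 and 0.60 with shRNA1 and shRNA2, and *Zfp281*, a zinc-finger factor of mESCs, rose by 0.22 and 0.58. The shRNA1 counts of lower genes were 2 without the first and 2 without the second nt-shRNA library, and 2 under library size alone. The 2 higher genes with shRNA1 became 0 without the first nt-shRNA library and 1 without the second, without the first or the second shRNA1 library or without the first shRNA2 library.

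Of 16 genes of base excision repair and its partners after TDG, 1 was higher and 8 lower with shRNA1 (median -0.19), and 4 were higher and 7 lower with shRNA2 (median -0.15). The members that fell furthest were *Gadd45b* (-0.94 and -1.73) and *Gadd45a* (-1.14 and -1.40), which are stress-inducible genes and not repair enzymes, followed by the glycosylase *Neil2* (-0.59 and -0.98). The flap endonuclease *Fen1* rose with shRNA2 (0.56, adjusted p = 0.00138, edgeR). The 8 lower genes with shRNA1 became 5 without the first or the second shRNA1 library, 4 without either nt-shRNA library and 3 under scaling by library size alone. The 1 higher gene became 0 without any of these 4 libraries and 3 under library size alone.

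Of 11 tested genes of the methyl donor cycle (of 12), 2 were higher and 3 lower with shRNA1 (median -0.07), and 3 were higher and 4 lower with shRNA2 (median -0.14). *Mat2a*, which makes the methyl donor S-adenosylmethionine, rose from 189.5 ± 2.30 CPM (SD, n = 2) in nt-shRNA to 256 ± 30.8 CPM (n = 3) with shRNA1 and 382 ± 42.0 CPM (n = 3) with shRNA2 (log2 fold change 1.01, adjusted p = 3.5e-08, edgeR). *Gnmt*, which consumes S-adenosylmethionine, fell by 0.52 and 1.67, and *Ahcyl1* by 0.21 and 0.52. The 3 lower genes with shRNA1 became 1 without the second shRNA1 library, 1 without either nt-shRNA library and 1 under library size alone, the 2 higher genes became 4 without the second shRNA2 library and under library size alone, and the 3 higher genes with shRNA2 became 1 without the first shRNA2 or the first nt-shRNA library.

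Germline genes, listed here as targets of silencing by promoter methylation, were read as well. In nt-shRNA their means ran from 2.26 CPM (*Tex101*) to 253 CPM (*Tuba3a*), so the list was already expressed in the controls. Of 15, 12 were higher and 1 lower with shRNA1 (median log2 fold change 0.60), and 11 were higher and 3 lower with shRNA2 (median 0.35), beside 13.8% and 27.2% of all tested genes called higher. In the direct comparison 1 was higher and 8 lower with shRNA2 than with shRNA1 (median -0.17), beside 16.9% and 18.7% of all tested genes. The 1 lower gene with shRNA1 was lost without the first or the second shRNA1 library and without either nt-shRNA library. *Tex19.1*, a germ cell gene that restrains retrotransposons, stood at 74.5 ± 2.12 CPM (SD, n = 2) in nt-shRNA, 141 ± 3.76 CPM (n = 3) with shRNA1 and 194 ± 19.0 CPM (n = 3) with shRNA2 (log2 fold change 1.38, adjusted p = 7.5e-11, edgeR). *Dazl*, an RNA-binding protein of germ cells, rose from 220.3 CPM to 357 and 368 CPM, and the tubulin gene *Tuba3a* fell by 0.20 and 0.59. Summed over the list, the level was 930.1 to 945 CPM in nt-shRNA, 1215 to 1317 CPM with shRNA1 and 1169 to 1248 CPM with shRNA2. The genes of this list were chosen with results of these data known, and their methylation was not measured.

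**Figure D5:**
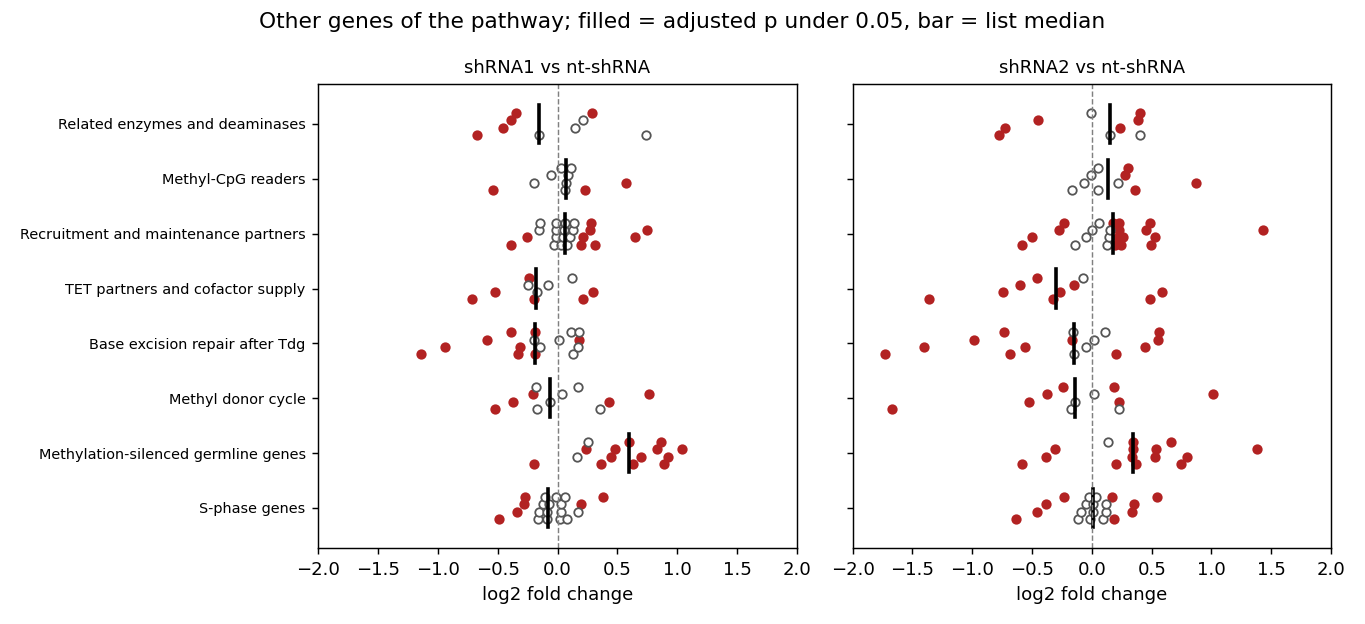
Log2 fold changes of the genes of 8 lists with shRNA1 and shRNA2 against nt-shRNA, 1 point per gene, filled where the adjusted p is under 0.05 (edgeR), with a bar for the list median. The germline genes lie mostly to the right (medians 0.60 and 0.35), the TET partners mostly to the left with shRNA2 (median -0.30), and the S-phase genes on both sides of 0.

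Among 9585 genes with a mean of at least 10 CPM, those most like each member over the 8 libraries were found by Pearson's r of log2 CPM, as a description over libraries that share their group, depth and scaling. *Mras* (r = 0.997) and *Mars2* (0.996) were most like *Tet2*, and *Rpl10l* (0.998) and *Ino80b* (0.997) most like *Dnmt3b*. *Cpxm1* (0.995) and *Fxyd2* (0.988) were most like *Dnmt3a*, *Creb3* (0.981) and *Carhsp1* (0.975) most like *Dnmt3l*, and *Ttc5* (0.998) and *Fbxl6* (0.996) most like *Uhrf1*. For *Dnmt1* they were *Cenpm* (0.989) and *Tubb5* (0.968), for *Tet1* *Fmnl2* (0.991) and *Hmgb3* (0.978), for *Tet3* *Il17ra* (0.958) and *Tom1l2* (0.926), and for *Tdg* *Mrpl16* (0.940) and *Hnrnpc* (0.934). The best r was lowest for *Tdg* and *Tet3*.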

How the data were processed

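Poly(A) RNA of R1 mESCs was sequenced in 8 libraries (3 shRNA1, 3 shRNA2, 2 nt-shRNA). The authors aligned paired reads with STAR to GRCm38 and deposited raw counts of fragments per gene, made with featureCounts 1.6.2 on GENCODE M24 exons, without strand and without fragments that map to several places or genes. The exon length in the deposited table was used for RPKM. Names of 55144 of 55385 genes were matched by identifier. The 9 genes and all lists were chosen with earlier results of these data known. In the lists, the 3 genes with the smallest adjusted p in the shRNA2 comparison were named. The called gene furthest against the list's majority in that comparison was named where there was one. The related enzymes had no majority there, with 3 higher and 3 lower, and no gene of the methyl-CpG reader list was lower. For the markers other than those of pluripotent stem cells, all called genes were named. For each of the 9 genes, the 2 genes with the highest correlation were named.

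The test was edgeR 4.0.16 (R 4.3.3) on the counts of the 8 libraries together: filterByExpr (minimum count 10, 17445 genes), TMM, glmQLFit with 1 coefficient per group and glmQLFTest, with Benjamini-Hochberg adjustment over all tested genes and a threshold of 0.05. Standard errors come from the F statistic, and intervals are 95%. Correlations used log2 CPM with a prior count of 2. Depth of 19569525 to 29871048 counts makes 3 counts equal to 0.105 to 0.148 CPM, and all 9 genes lay far above that. Libraries of 1 group differed by a chi-square of 3.00 to 11.6 per gene, most between both nt-shRNA libraries, so none was a duplicate. On simulated counts for the shRNA2 comparison (17073 genes), 26.0%, 66.7% and 81.2% of genes changed 1.25-, 1.5- and 2-fold were recovered, with 1.7% of calls false. Alternatives, 15 in all, were DESeq2 1.42.0, its size factors, library size alone, other filters, only the groups compared, a replicate block and leaving out each of 8 libraries. The counts of the lists under these alternatives were added after seeing the data. Figures were drawn with matplotlib 3.10.9.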

Additional observations from a re-analysis of the deposited data

How the results depend on the processing

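Over 15 alternatives the calls of *Dnmt3b*, *Dnmt3l*, *Uhrf1* and *Tet2* in both hairpin comparisons, of *Dnmt3a* and *Tet1* with shRNA2 and of *Dnmt3a*, *Dnmt3b* and *Tet2* between the hairpins passed in every one. With shRNA2 the log2 fold change ranged from 1.5 to 1.68 for *Tet2*, from 1.18 to 1.34 for *Dnmt3b*, from -0.69 to -0.49 for *Dnmt3l* and from -0.48 to -0.35 for *Uhrf1*. Under library size alone, *Dnmt3a* (0.0187) and *Dnmt1* (0.0471) changed sign with shRNA1 and *Tdg* (0.0401) with shRNA2, none of them called, *Tet3* passed with shRNA1 (0.32, adjusted p = 0.0312, edgeR), and 4101 genes were higher and 1713 lower with shRNA1, against 2407 and 2981. Leaving out 1 library gave 1248 to 2649 higher and 1700 to 3254 lower genes with shRNA1, the lowest without the first nt-shRNA library. It also changed the sign of *Tdg* with shRNA2, from -0.1493 without the second nt-shRNA library to 0.0478 without the first, and of *Dnmt3l* between the hairpins, from -0.1444 without the second shRNA2 library to 0.0537 without the third, again uncalled. The leave-one-out fits with 1 control assume that it varies like the other groups. *Eftud2* with shRNA1 passed in 6 of 15 alternatives, with no filter on low counts, DESeq2, only the groups compared, the replicate block and without the second or the third shRNA2 library (adjusted p from 0.0206 to 0.0491, log2 fold change from -0.21 to -0.16). For these changes the cause was not tested. On simulated counts for the shRNA2 comparison, with 200 genes changed, 26% of changes of 1.25-fold were recovered. The observed comparison called 55.9% of tested genes, and an adjusted p depends on how many genes change. The simulated share therefore does not give the share missed in the observed comparison. The other comparisons were not simulated.

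Deviations of libraries with the same replicate number were weakly correlated (r from -0.03 to 0.07 over 7 pairs, against -0.08 to 0.03 over 14 other pairs). Each shRNA1 library had its highest r with the shRNA2 library of its number (0.022, 0.057 and 0.074). The other pairs of shRNA1 with shRNA2 lay between -0.083 and 0.028. The 2 controls deviate from their mean by equal and opposite amounts, so r of pairs with nt-shRNA only mirror each other. The study pairs replicates in its qPCR. Whether a number marks a shared batch of the sequenced libraries is not given in the sources used here. These small r do not settle it, and the libraries were treated as sharing only a number. With the replicate number as a block, 3 of the 9 genes were higher and 2 lower with shRNA1, and 4 were higher and 4 lower with shRNA2, the added one being *Dnmt1* (-0.16, adjusted p = 0.0369, edgeR). Of all tested genes the block called 2694 higher and 3324 lower with shRNA1 and 4898 and 5136 with shRNA2.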
